A study of Rattus norvegicus with 2 samples.

Results

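Heterotrimeric G proteins were followed in 2 digital gene expression libraries of embryonic rat cortical neurons through the genes Gnas, Gnao1, Gnai1, Gnai2, Gnai3, Gnaq, Gna11, Gnb1, Gnb2 and Gng2. The genes were chosen by name, though with earlier results of these data known. Each was looked up by the rat symbol of the RefSeq transcript identifier under which its tags were filed. Of the 10 genes, 9 had a row and 8 of these had 1 identifier, while Gnas had 2, which gave 10 identifiers of the 9894 listed in either library. No row carried the symbol Gng2, and this gamma subunit was not analysed here. All 10 identifiers were present in both libraries. Together they held 8 entries for alpha subunits and 2 for beta subunits.

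Both libraries came from neurons of the somatosensory cortex of Sprague-Dawley rat embryos at E16, which were dissociated, electroporated with a pSuper plasmid and grown for 48 h in Neurobasal medium. The medium held 10% fetal bovine serum and the B27 supplement at 2%. In the Scramble library the plasmid carried a control hairpin of shuffled sequence. In the PIWIL1 RNAi library it carried a hairpin against rat Piwil1, a PIWI protein known for binding small RNAs in the germ line. The labels do not say which of the Piwil1 target sequences was used, and neither the number of embryos per culture nor a sort of the electroporated cells is described. Each condition had 1 library, so none of the values below has a replicate check, and every p-value compares these libraries rather than the conditions.

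A heterotrimeric G protein consists of an alpha subunit, which binds guanine nucleotides, and a tightly joined beta-gamma pair. An activated receptor makes the alpha subunit exchange GDP for GTP, after which alpha and beta-gamma part and act on separate effectors until the alpha subunit hydrolyses its GTP. Alpha s stimulates adenylyl cyclase, the alpha i and alpha o subunits inhibit it or act through their released beta-gamma, and alpha q and alpha 11 activate phospholipase C beta. In the developing cortex these proteins carry signals from cannabinoid, GABA, serotonin and adhesion receptors, and alpha i subunits also take part in orienting the mitotic spindle of progenitor cells.

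Each library consisted of 21-base tags that begin with CATG, the site cut by NlaIII, and the number of copies of each tag was counted. Sites were numbered from the 3′ end of the transcript, so that site 1 is the one nearest the poly(A) tail and gives most tags where digestion is complete. The members' results turned on a small number of tags, which are printed here 5′ to 3′ with capitals at the end of the tag. The capitals mark the final run of A where it is 3 bases or longer and otherwise the last 2 bases, the property by which tags were sorted into end classes. The first set holds the most copied tag of each identifier.
Gnas, NM_001159656, site 1: catgtttcagcAAAAAAAAAA
Gnas, NM_019132, site 8: catgggctgcctcggcaacAG
Gnao1, site 1: catgtgctttgtagctttAAA
Gnai1, site 2: catgaagctgttcgatagcAT
Gnai2, site 1: catgatttgaaataataaaAT
Gnai3, site 1: catgcctttcctttgtaaaTG
Gnaq, site 2: catgcacaattggttcgagAG
Gna11, site 1: catggaggagagcaaggccCT
Gnb1, site 3: catgacaaccgagtcagctGC
Gnb2, site 1: catgccaagcctccctcccTG

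The second set holds further tags of the genes in which tags of the same transcript were compared with each other. The first of them differs from the most copied Gnas tag by the substitution A9T, where positions are counted from 1 at the 5′ end of the tag and the base of the most copied tag is given first.
Gnas, A9T form: catgtttctgcAAAAAAAAAA
Gnas, NM_001159656, site 2: catgctggaattgcccggtCT
Gnai2, site 2: catgttttatggaattgttCA
Gnai2, site 3: catgcagagtttcccaaggCC
Gnai3, site 3: catgagaagagatgatcgaGT
Gnai3, site 4: catgcagaatctttagcacAA
Gnb2, site 6: catgtcgcctgtttgacctGC
Gnb2, site 5: catgtattcccacgacaacAT
Gnb2, site 3: catgataaccgtgtgagctGC
Gnb1, site 6: catgcaggctgtttgacctTC
Each tag was filed under 1 identifier in these files.

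The Scramble library held 1947600 copies on genes out of 3386864 clean tags, and the PIWIL1 RNAi library 1865913 out of 3303358. Levels are given as TPM, which here means copies per 1000000 clean tags without division by transcript length, so they compare 1 gene between libraries and not genes with each other. Piwil1 itself had no row in either library, and the knockdown could not be checked from these files. The marker genes of neurons were all listed, and their summed level was 3437 TPM in the Scramble and 2716 TPM in the RNAi library, against 1003 and 1298 TPM for the 5 listed of 6 markers of radial glia and progenitors (Eomes had no row). Markers of fibroblasts and meninges summed to 546 and 523 TPM. Those of astrocytes (20.4 and 22.1 TPM, 3 of 4 listed), microglia (15.9 and 18.5 TPM, 3 of 4), oligodendrocytes (3.84 and 4.54 TPM, 4 of 4) and endothelium (0 and 0.61 TPM, 1 of 4) were low in both libraries. None of these marker genes passed the test below, and their part in the members' values was not tested. In such bulk samples, fewer cells of a type and less RNA per cell cannot be told apart.

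A gene was called when the 2-sided Fisher's exact test on its copies gave a false discovery rate (FDR) of at most 0.05 over all 9894 identifiers and the log2 ratio of TPM, PIWIL1 RNAi over Scramble, was at least 0.58 in size. These are the thresholds that the study's methods name. By this rule 3 of the 10 member identifiers were called, or 30%, against 8.93% of all identifiers. Gnas was the 1 member called higher in the RNAi library, beside 2.96% of all identifiers, and Gnb2 and Gnai3 were the 2 called lower, beside 5.97%. By the ratio threshold alone 5 of the 10 passed, against 28.2% of all identifiers listed in both libraries. With the most copied tag of each identifier alone 9.69% of all identifiers were called. An edgeR exact test with an assumed coefficient of variation of 0.1 between cultures called 2.87%, with Gnas and Gnb2 among them. At an assumed 0.4 it called 0 identifiers, and the variation between cultures could not be measured. Calls depend on copy number, and among identifiers with at least 100 copies over both libraries 13.1% were called, a range that held 6 member identifiers, including the 3 that were called. The other 4 member identifiers had under 25 copies in all. The median log2 ratio over the 10 identifiers was -0.45, beside -0.085 over all identifiers listed in both libraries. It rested in part on a Gnas identifier with 3 and 2 copies, and was -0.36 over the members with at least 10 copies in 1 library. Of the 10 values 9 lay below 0, including the 4 with under 25 copies. That of Gnb1 (-0.0048) lay above 0 under TMM and DESeq2 scaling. The share of all identifiers below 0 was not counted.

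**Figure D1:**
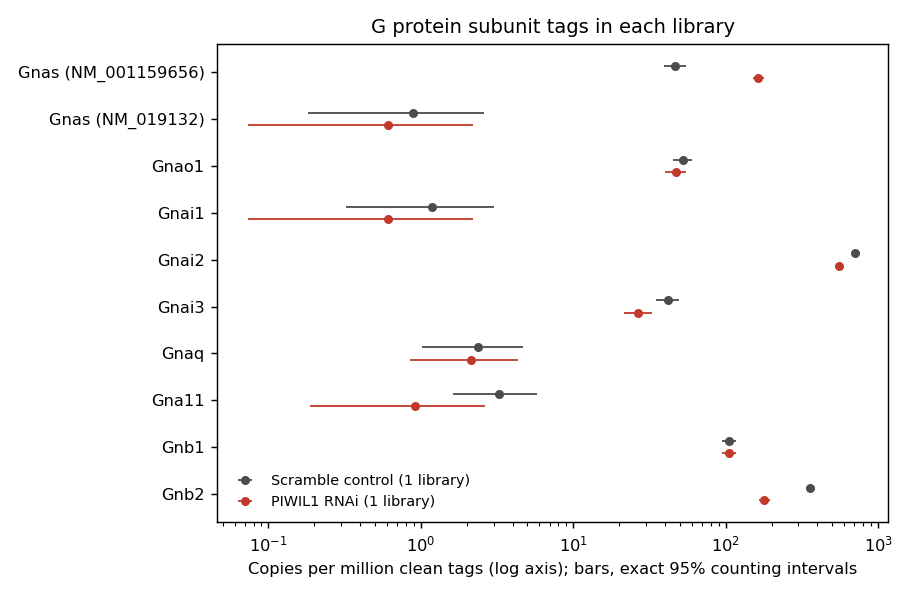
Level of each member identifier in TPM (copies per 1000000 clean tags, log axis) in the Scramble and the PIWIL1 RNAi library, with bars for the exact 95% counting interval; each condition is 1 library. Gnas (NM_001159656) stands higher in the RNAi library at 163.77 against 46.65 TPM, Gnb2 lower at 179.21 against 356.97 TPM, and the intervals of Gnb1 and of Gnao1 overlap between the libraries.

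Gnas encodes alpha s, which couples receptors to the production of cyclic AMP, and its locus also gives rise to imprinted alternative products. The main identifier, NM_001159656, had 158 copies or 46.65 TPM (exact 95% interval 39.7 to 54.5) in the Scramble library and 541 copies or 163.77 TPM (150 to 178) in the RNAi library. The intervals did not overlap, and the ratio was 3.51 (log2 1.81, 95% interval 1.55 to 2.08, Fisher's exact test FDR 3.51e-51). All intervals here cover counting error only, since each condition had 1 library. Copies made by PCR are not independent molecules, so the intervals may understate even that error. The second identifier, NM_019132, had 3 copies in the Scramble and 2 in the RNAi library, at the floor of 3 copies, and no ratio is given for it. With both identifiers summed, Gnas had 161 and 543 copies (log2 1.79, 1.53 to 2.05).

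The copies of Gnas lay almost entirely on tags that end in a run of A. Tags ending in 8 or more A made up 96.8% of its copies with Scramble, 98.7% with RNAi and 98.3% over both libraries. The most copied tag, printed first above with its 10 final A, had 144 copies with Scramble and 510 with RNAi (log2 1.86, 1.59 to 2.14). Its A9T form with the same ending had 9 and 24 copies (log2 1.45). The site 2 tag, which ends in CT and lies inside the transcript, had 5 and 7 copies. When the tags ending in 8 or more A were left out, 5 Scramble and 7 RNAi copies remained, and the log2 ratio was 0.52 with an interval from -1.35 to 2.52 (Fisher's exact test FDR 0.784). At that depth neither a difference of the size seen with all tags nor its absence was detectable. Without these tags 7.79% of all identifiers were called, and no other member identifier had such a tag.

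Tags with this ending were higher in the RNAi library across the transcriptome. There were 196 tags ending in 8 or more A that reached 20 copies, and 193 of them were higher in the RNAi library. All tags with such an end together had 21048 Scramble and 50841 RNAi copies. The median log2 ratio was greater for longer final runs, though not at every step, from -0.16 for tags with no final A through 0.17 at 3, 0.90 at 8 and 1.16 at 10 to 1.91 at 13 or more. The Gnas tag lay above 91.4% of the 35 tags that end in exactly 10 A, of which the middle 50% had log2 ratios from 1.01 to 1.43. When each tag's copies were corrected by the median of its end class among genes outside the lists, the log2 ratio of Gnas was 0.61. This was narrowly past the ratio threshold and past the FDR threshold (Fisher's exact test FDR 2.47e-06), while 5.57% of all identifiers were called. The test treated the corrected copies as counts and left out the spread within the end class. Its FDR therefore does not show whether Gnas departs from tags with the same ending. What makes the tags with a long run of A higher in the RNAi library was not tested.

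**Figure D2:**
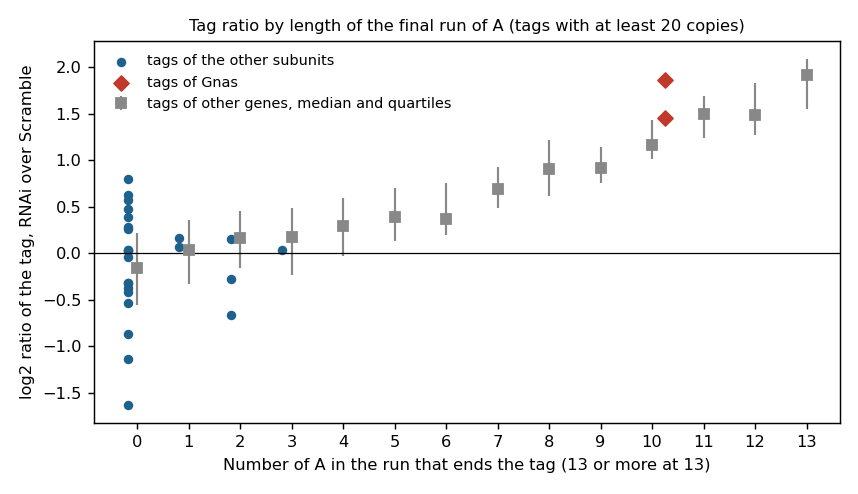
Log2 ratio (PIWIL1 RNAi over Scramble) of tags with at least 20 copies by the length of their final run of A. Squares and lines show the median and quartiles over tags of other genes, circles the tags of the other subunits and diamonds those of Gnas. The medians go from -0.16 without a final A to 1.16 at 10 A, and both Gnas tags, at 1.86 and 1.45, lie above the median at 10.

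Gnao1 encodes alpha o, the abundant alpha subunit of brain, which couples to receptors for opioids, GABA and many other inhibitory transmitters. It had 177 copies or 52.26 TPM in the Scramble and 156 copies or 47.22 TPM in the RNAi library (log2 -0.15, -0.47 to 0.17, Fisher's exact test FDR 0.720). Its most copied tag, which ends in 3 A, had 109 copies in each library, and its other tags together had 68 and 47 (log2 -0.50, -1.07 to 0.06). The ratio of the top tag and that of the other tags differed by 0.53 on the log2 scale with an interval from -0.16 to 1.23, so no difference within the gene was detectable.

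Gnai1, Gnai2 and Gnai3 encode the closely related alpha i subunits, which inhibit adenylyl cyclase and hold the LGN protein at the cell cortex during spindle orientation. Gnai2 had the highest copy number of the members, with 2397 copies or 707.73 TPM in the Scramble and 1817 copies or 550.05 TPM in the RNAi library. The ratio was 0.777 (log2 -0.36, -0.45 to -0.28, Fisher's exact test FDR 1.79e-12), which passed the FDR threshold and fell short of the ratio threshold, so the gene was not called. Gnai3 had 141 copies or 41.63 TPM and 88 copies or 26.64 TPM. Its ratio of 0.640 (log2 -0.64, -1.05 to -0.25, Fisher's exact test FDR 0.0125) was called lower, close to the ratio threshold, and with TMM or DESeq2 scaling it stood at -0.55 or -0.56 and was not called. Gnai1 had 4 and 2 copies (log2 -0.95, -4.43 to 1.84), too few for any comparison.

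Within Gnai2 and Gnai3 the tags of 1 transcript did not move alike. The site 1 tag of Gnai2 had 1844 copies in the Scramble and 1238 in the RNAi library (log2 -0.54, -0.64 to -0.43). All its other tags together had 553 and 579 copies (log2 0.10, -0.07 to 0.27), among them 383 and 391 at site 2 and 103 and 102 at site 3. The site 1 tag of Gnai3 had 97 and 43 copies (log2 -1.14, -1.69 to -0.61), and its other tags had 44 and 45 (log2 0.07, -0.56 to 0.70), with 14 and 19 at site 3 and 12 and 13 at site 4. In both genes the lower value in the RNAi library was thus held by the tag nearest the poly(A) tail, and the sum of the remaining tags was nearly level between the libraries.

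The split was tested for each gene with Fisher's exact test on a table of the top tag against the other tags in both libraries, adjusted over the 5114 identifiers whose top tag and other tags each had at least 20 copies over both libraries. For Gnai2 the top tag's log2 ratio lay 0.64 under that of the other tags (difference -0.64, -0.84 to -0.44, exact test FDR 1.38e-08). For Gnai3 the difference was -1.21 (-2.05 to -0.36, exact test FDR 0.0322). Over all identifiers tested 12.3% had a difference at this FDR, and in 5.28% it was the top tag that was lower. Of the 6 members tested 3 had a difference, all with the top tag lower. Such detection depends on copy number, and the share at the members' depth was not computed. In terms of site use, site 1 held 76.9% (95% interval 75.2 to 78.6) of Gnai2 copies in the Scramble and 68.2% (66.0 to 70.4) in the RNAi library, and 68.8% (60.5 to 76.3) and 48.9% (38.1 to 59.8) of Gnai3 copies. Over all identifiers the share was 62.7% and 64.6%, so the share on site 1 was lower with RNAi in these genes and slightly higher over the whole library.

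The end classes of both tags also differed between the libraries. The 1031 tags ending in AT had a median log2 ratio of -0.38, with the middle 50% from -0.73 to -0.11, and the 861 tags ending in TG a median of -0.67, with the middle 50% from -1.28 to -0.02. The top tag of Gnai3 was near the middle of its class, with 30.8% of the TG tags lower still. The next most copied tags of Gnai2 end in CA and CC, classes with medians of 0.16 and 0.04. Those of Gnai3 end in GT and AA, with medians of -0.67, like that of TG, and 0.16. The test of the top tag against the other tags did not account for end class, nor did the site shares. Neither therefore separates position along the transcript from tag end. After the tag-end correction Gnai3 stood at -0.21 (Fisher's exact test FDR 0.717) and was not called, and Gnai2 at -0.19 (Fisher's exact test FDR 0.00691). The source of the difference between end classes was not tested.

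Gnaq and Gna11 encode the alpha subunits that activate phospholipase C beta. Gnaq had 8 copies or 2.36 TPM in the Scramble and 7 copies or 2.12 TPM in the RNAi library, all on its site 2 tag (log2 -0.15, -1.85 to 1.5). Gna11 had 11 copies or 3.25 TPM and 3 copies or 0.91 TPM (log2 -1.84, -4.32 to 0.08, Fisher's exact test FDR 0.207). The 7 and 3 copies of its site 1 tag made up most of this, and a further tag had 4 copies in the Scramble and 0 in the RNAi library. At these copy numbers no difference was detectable for either gene, and both intervals include 0.

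Gnb1 and Gnb2 encode beta subunits, which bind the gamma subunit and, once released, act on potassium and calcium channels and on kinases. Gnb2 had 1209 copies or 356.97 TPM in the Scramble and 592 copies or 179.21 TPM in the RNAi library. Its ratio of 0.502 (log2 -0.99, -1.14 to -0.85, Fisher's exact test FDR 8.37e-41) was the lowest among the members with at least 100 copies. Gnb1, by contrast, had 358 copies or 105.7 TPM and 348 copies or 105.35 TPM (log2 -0.0048, -0.22 to 0.21, Fisher's exact test FDR 0.962). The intervals of the log2 ratios of these beta subunits did not overlap.

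The tags of Gnb2 also differed from each other. Its site 1 tag had 895 copies in the Scramble and 281 in the RNAi library (log2 -1.64, -1.83 to -1.44). The other tags together had 314 and 311 copies, a log2 ratio of 0.02 with an interval from -0.21 to 0.25 (Fisher's exact test FDR 0.650). Among these, the tag at site 6 had 96 and 112 copies, that at site 5 had 92 and 69, that at site 3 had 55 and 65, and that at site 2 had 37 and 29, some above and some below a ratio of 1. The top tag's ratio differed from that of the others by -1.66 on the log2 scale (-1.96 to -1.35, exact test FDR 2.51e-25). Site 1 held 74.4% (71.9 to 76.9) of Gnb2 copies in the Scramble and 47.5% (43.4 to 51.6) in the RNAi library.

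The top tag of Gnb2 ends in TG, like that of Gnai3, and 12.4% of the 861 TG tags had a still lower log2 ratio. The next most copied tags of Gnb2 end in GC or AT, classes with medians of 0.15 and -0.38, beside -0.67 for TG. The test of the top tag against the others and the site shares therefore do not separate position from tag end here either. After the tag-end correction Gnb2 remained past both thresholds at a log2 ratio of -0.64 (Fisher's exact test FDR 1.58e-15). This test left out the spread within an end class, so its FDR does not show whether Gnb2 departs from tags with the same endings. With the most copied tag of every identifier left out, Gnb2 was not called and no other member was, while 4.56% of all identifiers were called. With the site 1 tags left out, again no member was called, while 4.17% of all identifiers were. The lower call of Gnb2 therefore rested on 1 of its 13 tags, and in the others together no difference was detectable at this depth.

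Gnb1 was spread over its transcript in another way. It had 12 tags at 12 sites, and its site 1 tag had no more than 11 copies in the Scramble and 16 in the RNAi library. The most copied tag, at site 3, had 89 copies in each library, the tag at site 6 had 77 and 73, and that at site 2 had 73 and 57. Among the 7 tags of Gnb1 that reached 20 copies, 3 had a lower and 4 a higher level with RNAi. The top tag and the others did not differ detectably (difference 0.05, -0.46 to 0.57, exact test FDR 0.980). For Gnas the same comparison (0.68, -0.39 to 1.68, exact test FDR 0.475) set the top tag mostly against its A9T form, which has the same ending, and does not bear on the rest of the transcript.

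**Figure D3:**
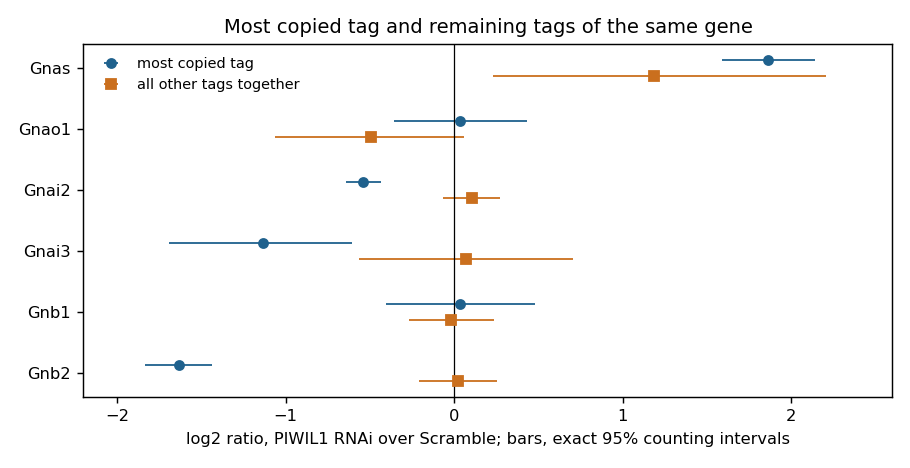
Log2 ratio (PIWIL1 RNAi over Scramble) of the most copied tag and of all other tags together for the 6 member identifiers with at least 20 copies of each, with exact 95% counting intervals. For Gnb2, Gnai2 and Gnai3 the top tag lies below 0 at -1.64, -0.54 and -1.14, and the other tags lie at 0.02, 0.10 and 0.07.

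**Figure D4:**
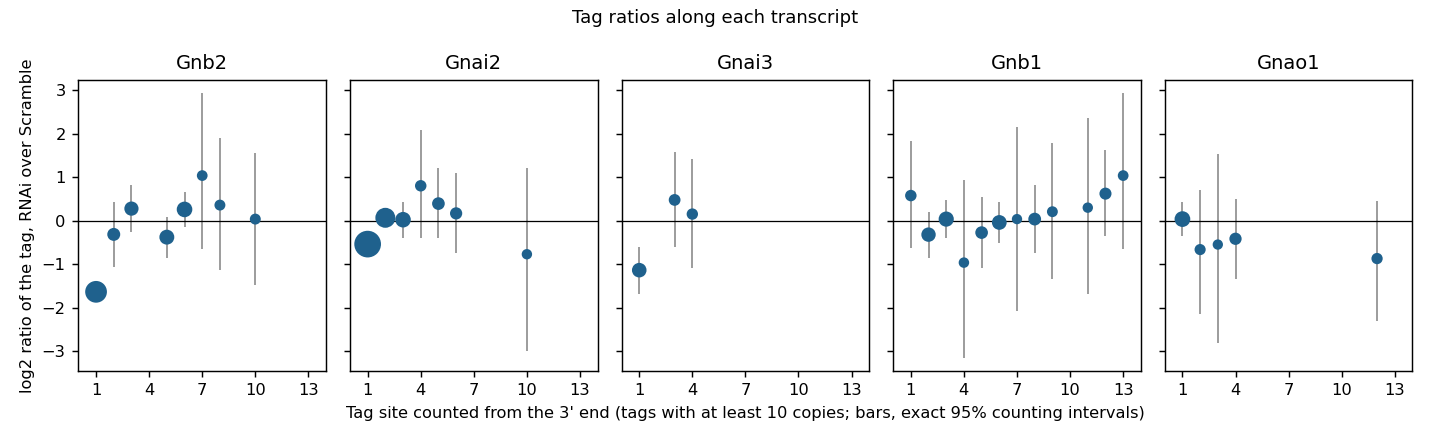
Log2 ratio (PIWIL1 RNAi over Scramble) of tags with at least 10 copies of Gnb2, Gnai2, Gnai3, Gnb1 and Gnao1 by site number, counted from the 3′ end of the transcript, with larger points for more copies and bars for exact 95% counting intervals. The site 1 tags of Gnb2, Gnai3 and Gnai2 lie below 0 with their whole interval, and the intervals of the upstream tags of these genes include 0.

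Over all genes, site 1 was not the lower part of the transcript. The 6028 site 1 tags with at least 20 copies had a median log2 ratio of -0.035, and 52.1% were lower in the RNAi library. The 9993 such tags at other sites had a median of -0.10, and 57.2% were lower. Gnb2, Gnai2 and Gnai3 had the reverse order. Gnao1, also with most of its copies on site 1, did not, since its share there was 61.6% in the Scramble and 69.9% in the RNAi library.

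The genes around the members in the pathway were counted in 5 lists of 119 genes, of which 78 were listed in either library, 60 in both, 15 in the Scramble library alone and 3 in the RNAi library alone. Of all 9894 identifiers, 597 were listed in the Scramble library alone and 398 in the RNAi library alone. Of the 78 genes 2 were called, both lower in the RNAi library, beside 8.93% of all identifiers. The median log2 ratio over the list genes listed in both libraries was -0.20, beside -0.085 over all such identifiers. A gene listed in 1 library alone can have as little as 2 copies there, the lowest number deposited for any tag.

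Of the 9 other alpha subunits 6 were listed and none was called, with a median log2 ratio of -0.54 over the 3 listed in both libraries. Gnaz, an alpha subunit of the inhibitory class, had 16 and 27 copies (log2 0.79, -0.15 to 1.78, Fisher's exact test FDR 0.285). Gna12 had 25 and 16 copies (log2 -0.61). Gnat1, the transducin alpha of rods, had 3 and 2. Gnal, the olfactory and striatal relative of alpha s, and Gna15 had 4 copies each in the Scramble and 0 in the RNAi library. Of the 15 other beta and gamma genes and their relatives 7 were listed, with a median of -0.26 and none called. Rack1, a ribosome-bound relative of the beta subunits, had 3997 and 3586 copies (log2 -0.12, -0.19 to -0.06). The gamma subunit gene Gng10 had 679 and 499 copies (log2 -0.41, -0.58 to -0.24), which passed the FDR and not the ratio threshold. Tags ending in 8 or more A made up 8.39% of its copies with Scramble and 29.3% with RNAi. Without them Gng10 had 622 and 353 copies and was called lower (log2 -0.78, -0.97 to -0.59, Fisher's exact test FDR 6.20e-13). Its most copied tag had 354 and 132 copies (log2 -1.39, -1.69 to -1.09). The other tags of Gng10 together had 325 and 367 (log2 0.21, -0.008 to 0.43) and were not called. These still include the tags ending in 8 or more A, which were higher with RNAi. The other tags without them were not compared. After the tag-end correction Gng10 stood at -0.42 and was not called. Its relatives Gng5 and Gng7 had 178 and 218 and 35 and 20 copies, in opposite directions.

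Among 33 regulators 20 were listed, none was called, and the median was -0.10. Rgs10 and Rgs4, which speed GTP hydrolysis by alpha i subunits, had 174 and 115 copies (log2 -0.56, -0.91 to -0.21, Fisher's exact test FDR 0.0169) and 146 and 98 copies (log2 -0.54, -0.92 to -0.16, Fisher's exact test FDR 0.0442). Both passed the FDR and fell short of the ratio threshold, and after the tag-end correction neither passed the FDR, with Rgs10 at -0.24 (Fisher's exact test FDR 0.538) and Rgs4 at -0.49 (Fisher's exact test FDR 0.121). Without its most copied tag Rgs4 had 113 and 58 copies and was called lower (log2 -0.93, -1.41 to -0.46, Fisher's exact test FDR 0.00812). Arrb2, an arrestin, had 160 and 148 copies, and Pdcl, a chaperone of beta-gamma assembly, 160 and 134.

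Among 30 effectors 23 were listed and 1 was called, with a median of -0.37. That gene was Adcy5, an adenylyl cyclase stimulated by alpha s and inhibited by alpha i, with 37 copies or 10.92 TPM in the Scramble and 13 copies or 3.94 TPM in the RNAi library (log2 -1.47, -2.51 to -0.53, Fisher's exact test FDR 0.0131). After the tag-end correction it stood at -1.29 and narrowly missed the FDR threshold (Fisher's exact test FDR 0.0502). Next came the regulatory subunits of protein kinase A, the target of cyclic AMP. Prkar1b had 737 and 573 copies (log2 -0.33), whereas Prkar1a had 521 and 650 (log2 0.36, 0.19 to 0.52) and Prkar2b 403 and 507 (log2 0.37, 0.18 to 0.56), none of them past the ratio threshold. After the tag-end correction Prkar1b stood at -0.44, while Prkar1a at 0.13 (Fisher's exact test FDR 0.222) and Prkar2b at 0.20 (Fisher's exact test FDR 0.0983) did not pass the FDR.

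Among 32 receptors 22 were listed and 1 was called, with a median of -0.17. Cnr1, the cannabinoid receptor of neurons that signals through alpha i and alpha o, had 1115 copies or 329.21 TPM in the Scramble and 654 copies or 197.98 TPM in the RNAi library (log2 -0.73, -0.88 to -0.59, Fisher's exact test FDR 4.40e-22). Unlike Gnb2, Gnai2 and Gnai3, it was lower in each of the 4 tags of which 20 copies or more were counted. Its most copied tag is printed here to set it beside those of the members.
Cnr1: catgtctattgtctaaaatTA
This tag had 1010 and 615 copies (log2 -0.68), and the other tags of Cnr1 together 105 and 39 (log2 -1.39, -1.96 to -0.85). The gene was called without its most copied tag and after the tag-end correction (log2 -0.83). The adhesion receptors Adgrl1, Adgrg1 and Celsr3 had log2 ratios of -0.13, -0.17 and -0.02 on 275 and 245, 209 and 181, and 139 and 134 copies, and were not called.

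**Figure D5:**
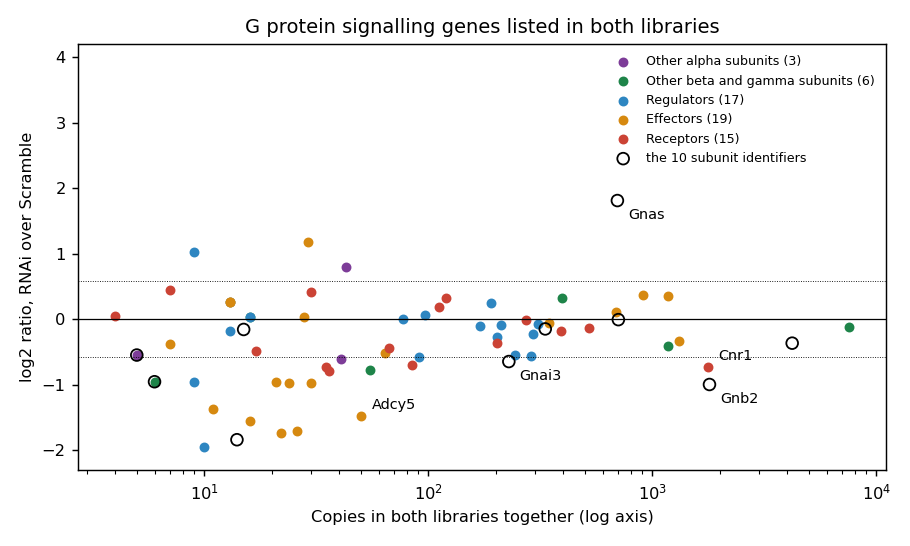
Log2 ratio (PIWIL1 RNAi over Scramble) against the copies in both libraries together (log axis) for the 60 list genes listed in both libraries (filled points, coloured by list) and the 10 member identifiers (open circles). Dotted lines mark the ratio threshold of 0.58 in either direction, and the called genes are labelled, among them Cnr1 at -0.73, Adcy5 at -1.47 and Gnas at 1.81.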

How the data were processed

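Each of the 2 conditions had 1 library, described per the labels as neurons treated with Scramble or PIWIL1 RNAi plasmid. The authors deposited, for each library, counts of 21-base tags (tag copy number) and their sum per RefSeq identifier, with TPM values that the authors obtained by dividing counts by the clean tags and multiplying by 1000000. The submitters' processing notes name rat build rn4, and the program that assigned tags to genes is not given in the sources used here. Symbols came from a RefSeq table, by which 9337 of 9894 identifiers (94.4%) had one. Its coordinates were not used.

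Deposited counts were compared per identifier by a 2-sided Fisher's exact test in SciPy 1.17.1 (Python 3.11.15, pandas 2.3.3), with Benjamini-Hochberg adjustment over all identifiers and calls at an FDR of 0.05 and a log2 ratio of deposited TPM of 0.58. The 95% intervals were computed by the Clopper-Pearson method. The floor of 3 copies equals 0.886 TPM in the Scramble and 0.908 TPM in the RNAi library. Tag-end correction used tags with at least 20 copies from genes outside the lists and members, with 0.5 copies added. The median log2 ratio of each end class, less the median over all these tags, was taken out of each tag. It was split equally between the libraries. Tests after the correction treated corrected copies as counts and left out the spread within an end class. Alternatives were other totals, TMM (edgeR 4.0.16) and DESeq2 1.42.0 scaling, and edgeR exact tests with an assumed biological coefficient of variation (BCV) of 0.1 or 0.4. Others were a log2 threshold of 1, a minimum of 10 copies, removal of the tags with 8 or more A at the end, and the most copied tag alone. Leaving out the most copied tag or the site 1 tags was added after the data were seen. The procedure was tested on simulated data.

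The members and lists were chosen with earlier results of these data known, and no result on them is independent support. Named list genes were those called and, per list, the most copied up to 4 in all, with ties kept. Tags of Gnai2, Gnai3, Gnb1, Gnb2 and Cnr1 other than the most copied of a member were printed after their values were seen.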

Additional observations from a re-analysis of the deposited data

How the results depend on the processing

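The number of member calls, 3 as reported, was 2 with TMM or DESeq2 scaling, after the tag-end correction and at an assumed BCV of 0.1 in edgeR (Gnas and Gnb2 each time), and 2 without tags ending in 8 or more A (Gnb2 and Gnai3). The number was 1 at a log2 threshold of 1, 0 at an assumed BCV of 0.4, at which edgeR called no identifier at all, and 0 without the most copied tag or without the site 1 tags. Of the 2 calls in the pathway lists, 1 was left after the tag-end correction, 1 at a log2 threshold of 1, 1 at a BCV of 0.1 and 0 at a BCV of 0.4 in edgeR, and there were 4 with the most copied tag alone (2 higher, Gng5 and Prkar2b, and 2 lower) and 4 without the site 1 tags, all lower. The members' median log2 ratio of -0.45 became 0.045 without the most copied tag. Directions turned for Gnai2 (0.10 without the most copied tag, 0.097 without site 1), Gnai3 (0.068 under both), Gnb2 (0.022 and 0.045), Gnao1 and Gnai1 (0.036 each with the most copied tag alone) and Gnb1 (0.021 with totals of copies on genes, 0.090 with TMM, 0.080 with DESeq2, 0.036 with the most copied tag alone). Left-out tags leave fewer copies, and what causes these shifts was not tested. No paired analysis was possible because each condition had 1 library. Members with under 25 copies could not have been called for moderate ratios.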

Other observations

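Adenylyl cyclases are stimulated by alpha s, and some forms are inhibited by alpha i. They were looked at together after their values had been seen, so their common direction is a description. Of the cyclase genes 7 were listed, and all 7 had a lower TPM in the PIWIL1 RNAi library. Adcy5 was called. Adcy2 had 17 copies in the Scramble and 5 in the RNAi library, Adcy3 had 16 and 8, and Adcy8 had 20 and 10. Adcy4 and Adcy7 were listed in the Scramble library alone, with 3 and 5 copies. Adcy6, which has more copies than the others, had 179 and 168 (log2 -0.06, -0.37 to 0.26). After the tag-end correction Adcy6 stood above 0, at 0.04. The 6 with at most 50 copies summed to 98 and 36 copies. Of the 3387 identifiers with 3 to 50 copies, 55.8% were lower in the RNAi library.

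Prkar1b, a regulatory subunit of protein kinase A, was divided between its tags in another way than Gnb2, an observation also made after the values were seen. Its most copied tag had 397 copies in the Scramble and 378 in the RNAi library (log2 -0.03, -0.24 to 0.17), and its other tags together had 340 and 195 (log2 -0.77, -1.03 to -0.51). Prkar1b was among the identifiers in the test of the top tag against the other tags, and its result there is not reported here.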
